A study of Homo sapiens with 24 samples.

Results

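The genes described here were 42 regulators of pre-mRNA splicing, taken from a list of gene symbols and found as rows of the deposited exon count table. They were 13 SR proteins (SRSF1 to SRSF11, TRA2A and TRA2B), 6 kinases that phosphorylate SR proteins (CLK1 to CLK4, SRPK1 and SRPK2), 17 hnRNP genes, the PTB proteins PTBP1 and PTBP2, and 4 RBM proteins (RBM3, CIRBP, RBM39 and RBM5). All 42 were among the 61533 genes of the table, and all passed the filter on low counts that left 23651 genes to test. The lowest count of any of them in any library was 320.

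Labelled, newly made transcripts were sequenced (4sU-seq) from U2OS cells, a human osteosarcoma line with little glucocorticoid receptor (GR) of its own. Cells were given 4-thiouridine (4sU, 200 µM) for the last hour of treatment, and RNA that had taken it up was biotinylated, pulled down and sequenced. There were 3 stable lines, each 1 pool selected with puromycin and sorted on a HaloTag dye, expressing GR-HaloTag from a CMV promoter: wild-type GR (wt), the K492A mutant with reduced RNA binding (SoF), and the R470A mutant (Ctrl), a control for the lower DNA binding of SoF. The synthetic glucocorticoid dexamethasone was given at 100 nM in charcoal-stripped serum for 1, 2 or 3 h, and 0 h dishes had 0.01% ethanol. With 2 libraries for every line and time, there were 12 groups and 24 libraries. The medium of every dish was replaced at the start, and how long the ethanol dishes were kept is not stated, so an effect of dexamethasone and of time since the medium change cannot be told apart. Construct and cell pool are likewise the same variable. Nothing in the labels says that the 2 libraries of a group came from separate cultures, so p-values measure the spread between libraries, which may be technical. The study's methods state that biotinylation and pulldown were carried out on pairs of replicates. If such a pair was the 2 libraries of a group, pulldown coincides with group, and the p-values leave its spread out.

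SR proteins bind exons through RNA recognition motifs and recruit the spliceosome through domains rich in arginine and serine. The CLK and SRPK kinases phosphorylate those domains and so control where SR proteins sit in the cell and how active they are. hnRNPs coat nascent RNA and often oppose SR proteins at splice sites. Many genes of both families limit their own level by splicing in a poison exon, which sends the transcript to nonsense-mediated decay, or by retaining an intron. Exon counts of labelled RNA add up all of these isoforms, so a change below is a change in labelled exon RNA and not in a given isoform or in protein.

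The promoters of 4 genes are shown as examples from the time course. From 1 h to 3 h TRA2B fell most, and CLK4 and CLK2 rose. SRSF3, an SR protein that also shapes 3′ ends and RNA export, fell as well. Other genes changed more than some of these: HNRNPAB rose by 0.57 on the log2 scale, and HNRNPA2B1 and SRSF10 fell by 0.54. Each window runs from 250 bases before to 50 bases after a RefSeq transcript start (GRCh38.p14), written 5′ to 3′ on the gene's strand: TRA2B at chr3:185937965-185938264 (minus strand), SRSF3 at chr6:36594112-36594411 (plus strand), CLK4 at chr5:178627001-178627300 (minus strand) and CLK2 at chr1:155273455-155273754 (minus strand). Capitals mark TGACG on either strand (the core of the cAMP response element, CGTCA on the other strand), CACGTG (the E-box) or TATAAA (the motif of TATA-binding protein). In CLK4 the TGACG and CACGTG matches overlap.
TRA2B: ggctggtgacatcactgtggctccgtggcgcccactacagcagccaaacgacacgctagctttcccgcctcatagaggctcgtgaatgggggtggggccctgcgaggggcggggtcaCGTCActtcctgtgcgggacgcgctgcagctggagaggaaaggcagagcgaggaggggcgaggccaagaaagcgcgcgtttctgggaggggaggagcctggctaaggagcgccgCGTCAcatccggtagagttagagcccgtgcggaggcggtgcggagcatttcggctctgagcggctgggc
SRSF3: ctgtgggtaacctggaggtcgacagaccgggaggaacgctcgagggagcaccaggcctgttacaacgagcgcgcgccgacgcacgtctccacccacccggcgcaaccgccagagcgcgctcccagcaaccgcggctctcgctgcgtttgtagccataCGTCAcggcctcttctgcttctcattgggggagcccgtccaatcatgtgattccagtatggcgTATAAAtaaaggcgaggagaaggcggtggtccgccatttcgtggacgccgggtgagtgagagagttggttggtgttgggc
CLK4: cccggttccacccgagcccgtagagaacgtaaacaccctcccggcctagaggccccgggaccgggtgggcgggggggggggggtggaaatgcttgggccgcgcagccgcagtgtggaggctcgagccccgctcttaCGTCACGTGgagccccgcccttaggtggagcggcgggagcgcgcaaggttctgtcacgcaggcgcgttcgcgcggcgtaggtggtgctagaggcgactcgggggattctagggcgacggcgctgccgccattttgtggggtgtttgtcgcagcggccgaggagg
CLK2: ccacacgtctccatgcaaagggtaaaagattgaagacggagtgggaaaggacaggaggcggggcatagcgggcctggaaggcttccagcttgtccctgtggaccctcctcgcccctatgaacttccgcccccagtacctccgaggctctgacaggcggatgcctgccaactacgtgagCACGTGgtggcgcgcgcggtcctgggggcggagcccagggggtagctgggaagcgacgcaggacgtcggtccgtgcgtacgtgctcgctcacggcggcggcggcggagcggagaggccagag
The full GR recognition sequence, AGAACA and its reverse complement TGTTCT with any 3 bases between them, was in none of the windows of the 38 splicing regulators that had one, and in 0.00285% of all 35116 windows. The arm AGAACA alone, searched on both strands, was at 9 of the 38 genes (23.7%), against 17.5% of all genes with a window (14.8% of windows). The 9 were CLK1, HNRNPD, HNRNPUL1, RBM3, SRPK1, SRPK2, SRSF10, SRSF7 and SRSF8. TGACG was at 22 of the 38 genes (57.9%), against 28.4% of the 27305 genes with a window. CACGTG was at 8 genes (21.1% against 8.77%) and TATAAA at 7 (18.4% against 14% of genes). TGACG and CACGTG each hold a CG, and the 4 windows shown above were 62.3% to 70.7% GC. The comparison with all genes was not matched for base composition or for windows per gene (1 to 4 in the 38). These shares are therefore no test of enrichment. The table held no window for HNRNPA1, TRA2A, RBM39 or SRSF2. The matches are letters in these windows and do not show that a factor bound there.

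Total counts were 8106036 to 15820806 per library, and the 42 genes took 0.978% to 1.39% of them. RUNX2 (47 to 157 counts per 1000000 of the total), COL1A1 (266 to 985) and SPARC (213 to 380) marked the cells as of osteoblast lineage, while SP7, IBSP and COL1A2 stayed at or under 0.652. Of markers of other cells, the epithelial list summed to 182 to 369, nearly all of it KRT18, the leukocyte list to 1.99 to 4.63 and the endothelial list to 1.98 to 5.28. Labelled RNA counted over NR3C1, the GR gene, was 334 to 1590 CPM in wt, 1120 to 6270 CPM in SoF and 1630 to 7660 CPM in Ctrl, and reads of the construct and of the endogenous gene cannot be told apart. These values are RNA. For GR protein, the study picked sorted fractions whose nuclear signal matched between lines by immunofluorescence after dexamethasone. FKBP5, a GR target, was at 19.4 to 33.8 CPM at 0 h and at 170 to 298 CPM at 3 h. Here and below, CPM is counts per 1000000 of the TMM-scaled total, except for the markers, which are relative to the raw total.

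The 0 h libraries need a word before the results. Between the 2 libraries of a group, counts of the 42 genes differed by 121 (Ctrl) and 64.4 (SoF) times counting error at 0 h (chi-square per degree of freedom), against 8.29 to 38.1 in the 10 other groups. Over all genes the same ratio was 6.16 to 22.6. The ratio rises with a gene's count, and the 42 genes were well counted, so the 2 ranges are not comparable. Of the 20 splicing regulators that fell from 1 h to 3 h (below), 19 were higher in replicate 2 than in replicate 1 at 0 h in Ctrl and 14 in SoF, but 5 in wt. Of all genes that fell from 1 h to 3 h, the shares were 79.1% in Ctrl, 75.8% in SoF and 68.4% in wt. Of the 7 that rose, 5 were lower in replicate 2 at 0 h in each line, against 82.8% (Ctrl), 79.7% (SoF) and 69.4% (wt) of all genes that rose. TRA2B, for example, was at 415 and 634 CPM in Ctrl at 0 h, and the second value lay above both 1 h libraries. Over all genes, the deviations of same-numbered 0 h libraries from their group means correlated between the lines (Pearson r = 0.39 to 0.57 for the 3 pairs of lines). The fit treats them as independent, so p-values of the mean of the lines against 0 h do not count this shared deviation. Results against 0 h are therefore given beside 3 h against 1 h, which uses no 0 h library. That comparison has a limit of its own. Over all genes it had the strongest correlation with GC content of the time comparisons in the mean of the lines (below).

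**Figure D1:**
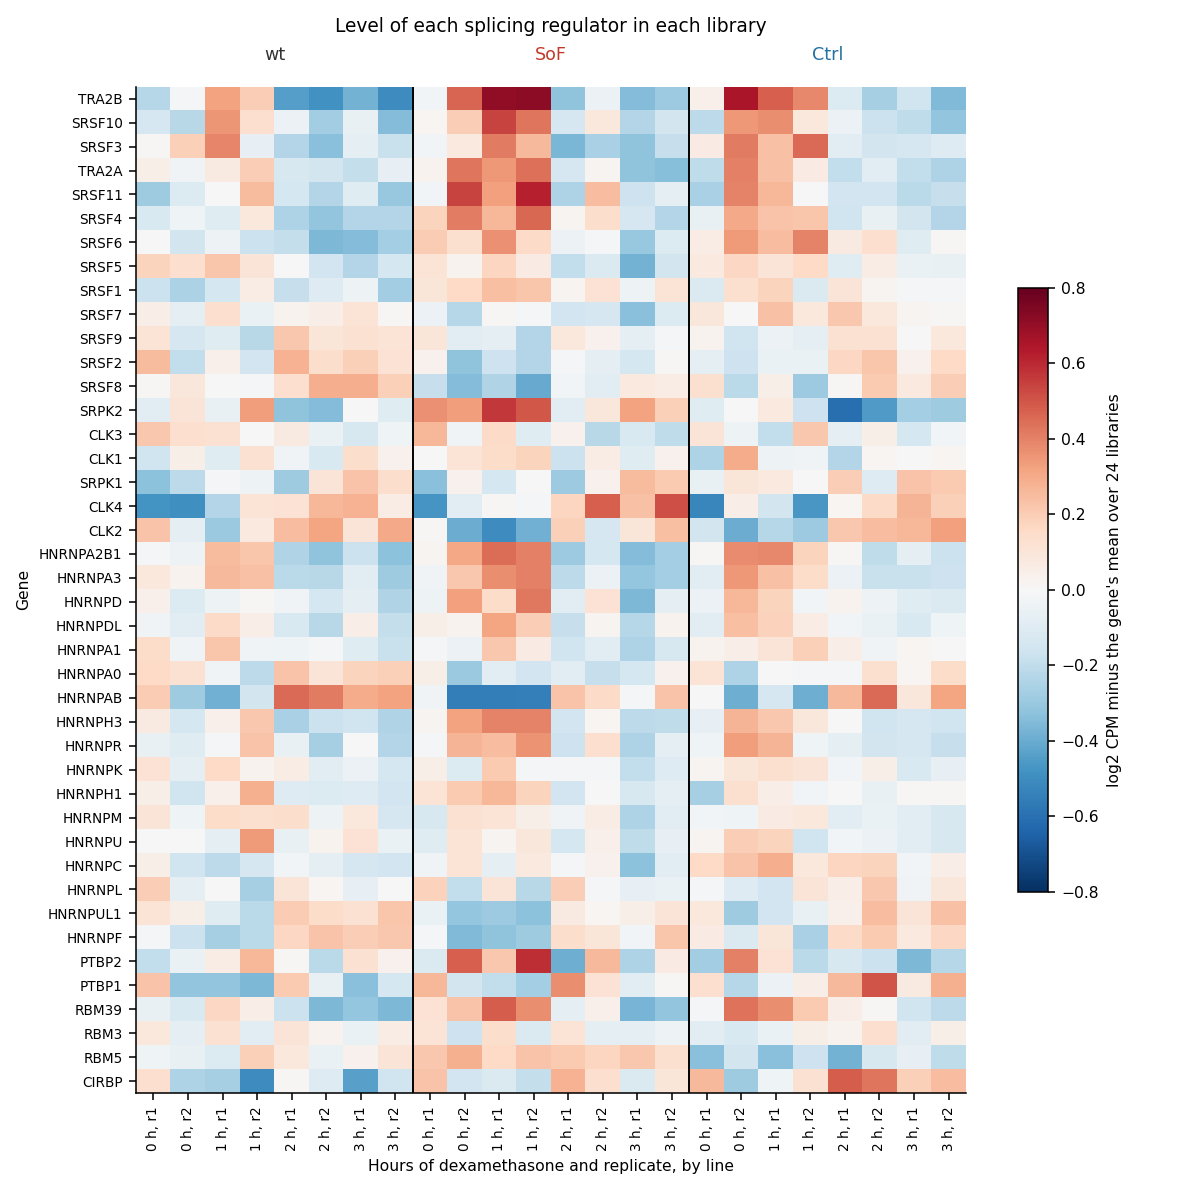
Heat map of the 42 splicing regulators (rows, grouped by role as SR proteins, kinases, hnRNPs, PTB and RBM proteins) in the 24 libraries (columns, by line, hours of dexamethasone and replicate r1 or r2); colour is log2 CPM minus the gene's mean over the 24 libraries. TRA2B runs from the highest values at 1 h in SoF (661 and 663 CPM) to the lowest at 3 h in wt (285 CPM), and the 0 h replicates of Ctrl differ for many rows.

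Levels of labelled RNA per kb of exon, averaged over the 24 libraries, ran from 151 CPM per kb for SRSF2 to 3.09 CPM per kb for PTBP2. SRSF2 and HNRNPA1 (113 CPM per kb) stood at percentiles 99.2 and 99 of all tested genes. HNRNPF (98.1 CPM per kb) led the other hnRNPs, RBM39 (50.1 CPM per kb) the RBM proteins and PTBP1 (35.7 CPM per kb) the PTB pair. The kinases were lower: CLK1 was at 25.8 CPM per kb, CLK4 at 6.19 and CLK3 at 3.38. HNRNPA1 has many processed copies in the genome and SRSF8 is a close copy of SRSF2, so reads of these genes could have been split or dropped in counting.

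At 1 h none of the 42 genes was called against 0 h in the mean of the lines by edgeR's quasi-likelihood test (Benjamini-Hochberg adjusted p under 0.05 over all 23651 genes), where 1.28% of all genes were called. Of the 42, 5 had an unadjusted p under 0.05, and DESeq2 also called 0. Their median log2 fold change was 0.08, against 0.01 over all genes. With the 0 h libraries of replicate 1 alone the count was 14 (9 rose and 5 fell, 21.7% of all genes), and with those of replicate 2 alone it was 0 (0.525% of all genes). Leaving out 1 library gave 2 without Ctrl 0 h replicate 2, 1 without SoF 0 h replicate 2 and 0 otherwise. TRA2B (0.30) and SRSF10 (0.31) had the highest log2 fold changes, with adjusted p by edgeR of 0.184 and 0.142.

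From 1 h to 3 h most SR proteins and hnRNPs fell and the kinases CLK2, CLK4 and SRPK1 rose. In the mean of the lines 27 of the 42 genes were called by edgeR (64.3%, against 50.6% of all genes). Of these, 20 fell (25.6% of all genes fell) and 7 rose (25% of all genes rose). The median log2 fold change was -0.17 for the 42 genes and -0.04 for all genes tested. With the trend of all genes with GC content and gene span removed (below), the median of the 42 genes was 0.02. Of them, 22 were then called, 11 up and 11 down, against 46.9% of all genes. Both 3 h libraries were below both 1 h libraries in all 3 lines for 16 of the 42 genes (17.8% of all genes) and above them for 6 (19.8% of all genes).

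**Figure D2:**
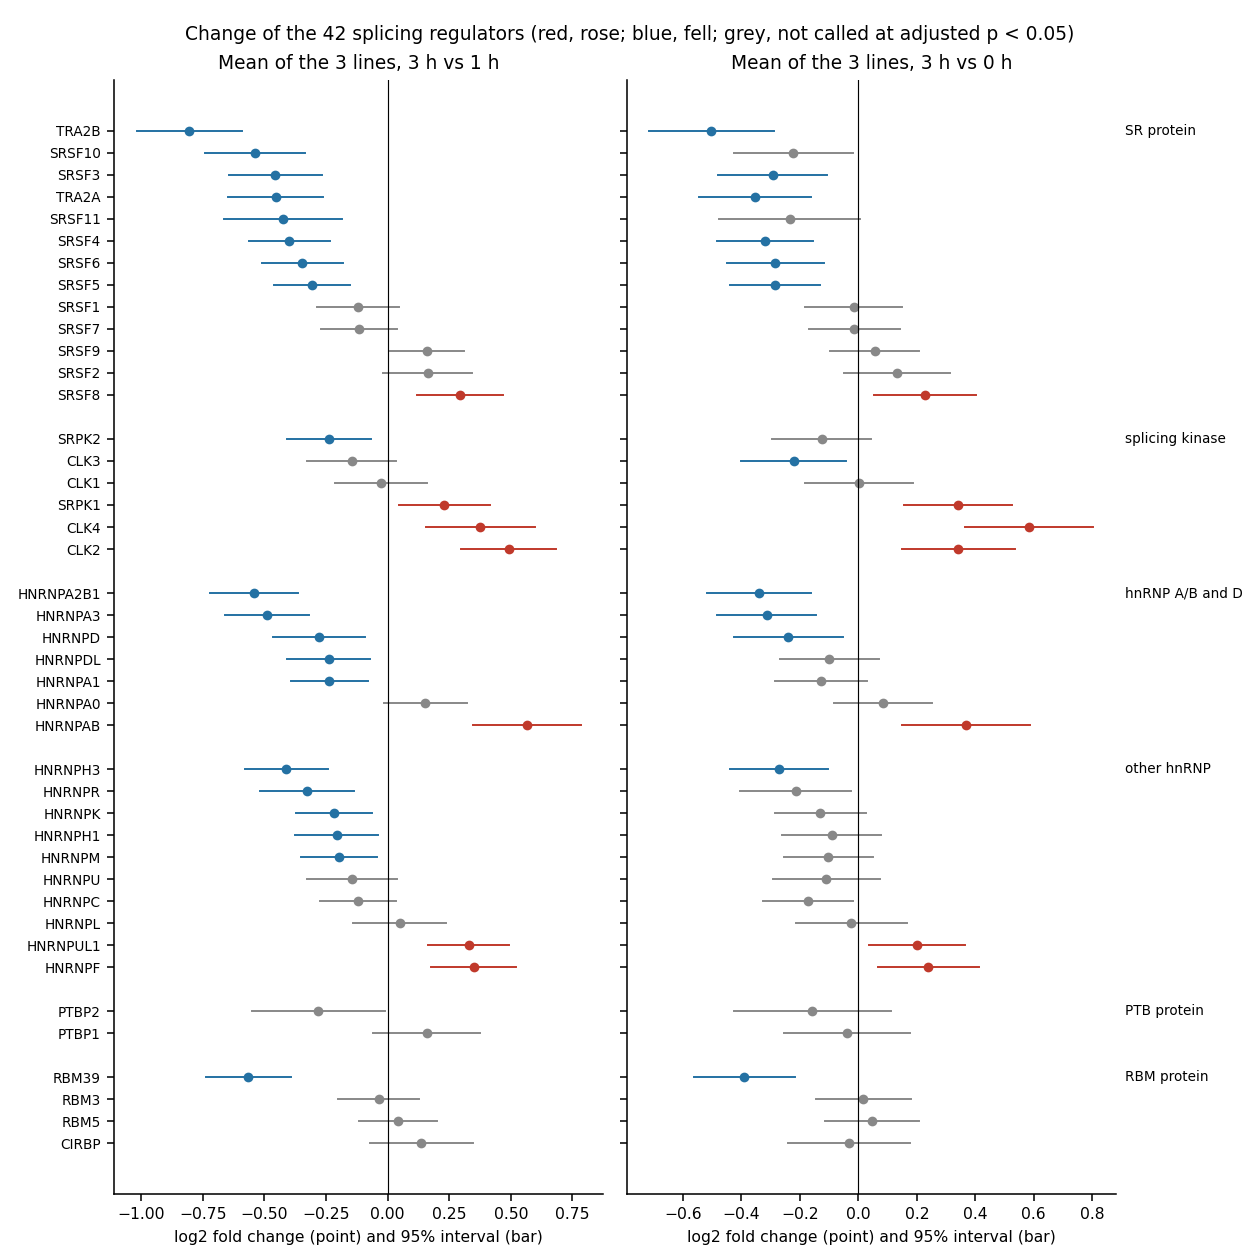
log2 fold changes (x axis, point) with 95% confidence intervals (bar) of the 42 splicing regulators, grouped by role, in the mean of the 3 lines, for 3 h against 1 h (left) and 3 h against 0 h (right); red rose and blue fell at adjusted p under 0.05 by edgeR, and grey was not called. On the left 20 genes are blue and 7 red (of the blue, HNRNPD, HNRNPH1, HNRNPR and SRPK2 turned positive with the GC trend removed), and on the right 12 are blue and 7 red.

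Among the SR proteins, 8 of 13 fell from 1 h to 3 h (TRA2B, SRSF10, SRSF3, TRA2A, SRSF11, SRSF4, SRSF6 and SRSF5), SRSF8 rose, and SRSF1, SRSF2, SRSF7 and SRSF9 were not called. Their median log2 fold change was -0.35. Once the GC trend was removed, SRSF3 (-0.18), SRSF11 (-0.12), SRSF5 (-0.09) and SRSF6 (-0.05) were no longer called. SRSF1, SRSF2 and SRSF9 were then called as rising. TRA2B, which binds purine-rich exonic enhancers and includes exons, fell most. TRA2B in wt was at 344 and 399 CPM at 0 h, 505 and 462 CPM at 1 h, 298 and 289 CPM at 2 h, and 311 and 285 CPM at 3 h. TRA2B in SoF was at 397 and 558 CPM at 0 h, 661 and 663 CPM at 1 h, 323 and 391 CPM at 2 h, and 317 and 330 CPM at 3 h. TRA2B in Ctrl was at 415 and 634 CPM at 0 h, 562 and 526 CPM at 1 h, 374 and 336 CPM at 2 h, and 361 and 316 CPM at 3 h. In every line both 3 h libraries lay below both 1 h and both 0 h libraries, and in wt and SoF both 1 h libraries lay above both 0 h libraries. The log2 fold change of TRA2B from 1 h to 3 h was -0.80 ± 0.10 (SE; adjusted p = 1.64e-06, edgeR), or 0.573 times the 1 h level. Against 0 h it was -0.44 ± 0.10 at 2 h and -0.50 ± 0.10 at 3 h (adjusted p = 0.00272 and 0.000494, edgeR).

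SRSF3 also fell, from a higher level. SRSF3 in wt was at 583 and 663 CPM at 0 h, 759 and 555 CPM at 1 h, 494 and 460 CPM at 2 h, and 549 and 512 CPM at 3 h. SRSF3 in SoF was at 571 and 613 CPM at 0 h, 775 and 693 CPM at 1 h, 450 and 484 CPM at 2 h, and 465 and 511 CPM at 3 h. SRSF3 in Ctrl was at 607 and 772 CPM at 0 h, 683 and 794 CPM at 1 h, 547 and 524 CPM at 2 h, and 528 and 540 CPM at 3 h. All 2 h and 3 h libraries of SRSF3 were below all 0 h and 1 h libraries of the same line. Its log2 fold change was -0.46 ± 0.09 from 1 h to 3 h and -0.29 ± 0.09 at 3 h against 0 h (adjusted p = 0.00026 and 0.0127, edgeR). TRA2A, the paralog of TRA2B, fell by 0.45 from 1 h to 3 h and by 0.35 against 0 h on the log2 scale (adjusted p = 0.000354 and 0.00428, edgeR). SRSF10, a splicing repressor when dephosphorylated, fell by 0.54 on the log2 scale from 1 h to 3 h (adjusted p = 0.000109, edgeR) but was not called against 0 h (-0.22 ± 0.10). SRSF4, SRSF5 and SRSF6 fell in both comparisons, by 0.28 to 0.40 on the log2 scale. SRSF2, the SR protein gene with the most labelled RNA per kb of exon, was at 357 to 542 CPM over the 24 libraries and was not called (0.16 ± 0.09 from 1 h to 3 h, adjusted p = 0.123, edgeR). SRSF8 rose by 0.29 ± 0.08 on the log2 scale (adjusted p = 0.00599, edgeR).

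**Figure D3:**
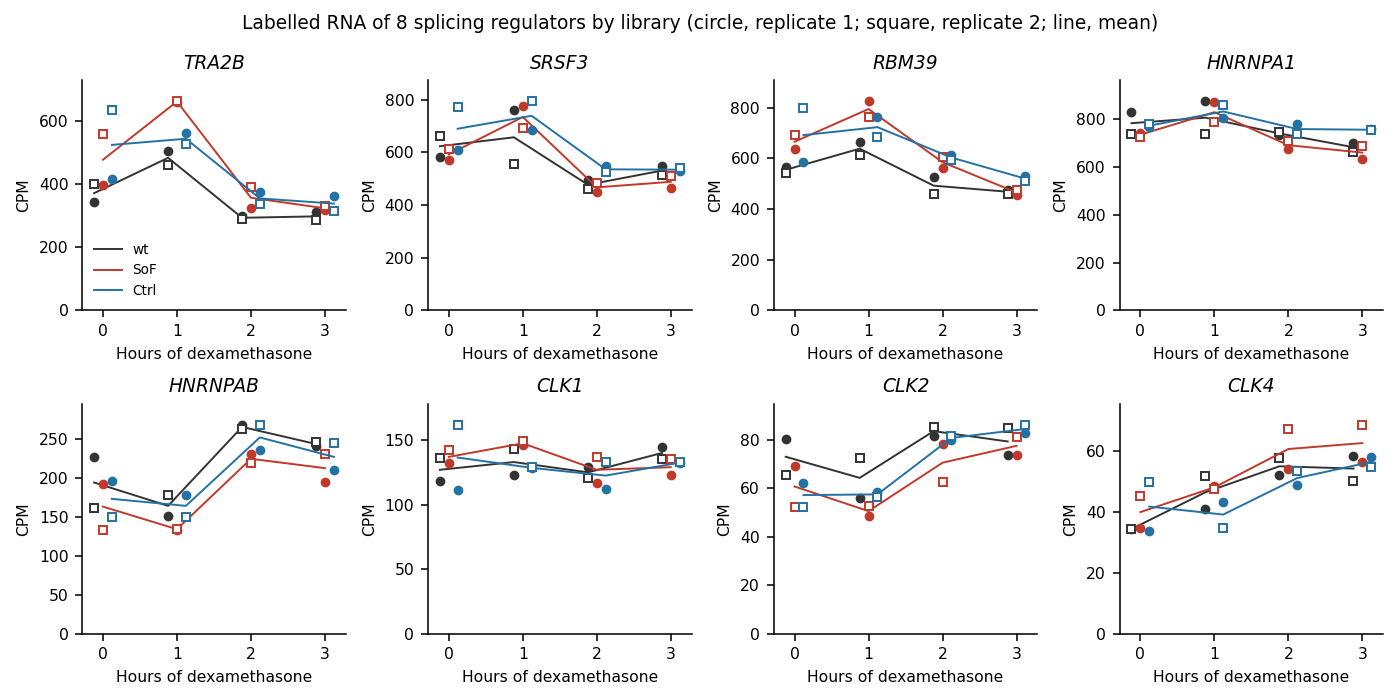
Labelled RNA (CPM, y axis from 0) of 8 splicing regulators against hours of dexamethasone (x axis) in the wt, SoF and Ctrl lines; circles are replicate 1, squares replicate 2 and lines join the means of the 2 libraries. TRA2B, SRSF3 and RBM39 drop between 1 h and 3 h in all 3 lines, HNRNPAB, CLK2 and CLK4 are higher at 3 h than at 1 h on average, and CLK1 stays between 111 and 162 CPM.

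Of the 6 kinases, CLK2, CLK4 and SRPK1 rose from 1 h to 3 h, SRPK2 fell (it was at 0.17 on the log2 scale once a trend with GC content was removed, as described below), and CLK1 and CLK3 were not called. The CLK kinases act on SR proteins in the nucleus, and SRPK1 and SRPK2 mainly in the cytoplasm. CLK4 in wt was at 34.4 and 34.2 CPM at 0 h, 40.9 and 51.8 CPM at 1 h, 52 and 57.7 CPM at 2 h, and 58.2 and 50 CPM at 3 h. CLK4 in SoF was at 34.6 and 45.1 CPM at 0 h, 48.4 and 47.5 CPM at 1 h, 54.1 and 66.9 CPM at 2 h, and 56.4 and 68.5 CPM at 3 h. CLK4 in Ctrl was at 33.5 and 49.8 CPM at 0 h, 43.3 and 34.8 CPM at 1 h, 48.6 and 53.4 CPM at 2 h, and 57.9 and 54.7 CPM at 3 h. All 2 h and 3 h libraries of CLK4 were above both 0 h libraries in wt and SoF, and in Ctrl all but 1 (48.6 CPM at 2 h, against 49.8 CPM in the higher 0 h library). The log2 fold change of CLK4 against 0 h was 0.21 ± 0.11 at 1 h, 0.53 ± 0.11 at 2 h and 0.58 ± 0.11 at 3 h, with adjusted p of 0.387, 0.000746 and 0.00015 (edgeR). From 1 h to 3 h the log2 fold change was 0.38 ± 0.11 (adjusted p = 0.00535, edgeR).

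CLK2 also rose, by more than CLK4 from 1 h to 3 h in the point estimate. CLK2 in wt was at 80.4 and 65.5 CPM at 0 h, 56 and 72.5 CPM at 1 h, 81.6 and 85.4 CPM at 2 h, and 73.8 and 84.7 CPM at 3 h. CLK2 in SoF was at 69.1 and 52.3 CPM at 0 h, 48.5 and 52.6 CPM at 1 h, 78.4 and 62.6 CPM at 2 h, and 73.7 and 81.2 CPM at 3 h. CLK2 in Ctrl was at 62.1 and 52.2 CPM at 0 h, 58.6 and 56.3 CPM at 1 h, 79.8 and 81.6 CPM at 2 h, and 82.6 and 86.2 CPM at 3 h. In each line both 3 h libraries were above both 1 h libraries, while at 0 h replicate 1 was the higher library in all 3 lines. The log2 fold change of CLK2 from 1 h to 3 h was 0.49 ± 0.09 (adjusted p = 0.000172, edgeR) and against 0 h 0.34 ± 0.09 (adjusted p = 0.00544, edgeR). SRPK1 rose by 0.34 ± 0.09 on the log2 scale at 3 h against 0 h, after 0.08 ± 0.09 at 2 h. SRPK2 fell by 0.39 on the log2 scale at 2 h against 0 h (adjusted p = 0.00115, edgeR) and was at -0.13 ± 0.08 at 3 h (adjusted p = 0.23, edgeR). CLK3 was called lower at 3 h against 0 h (-0.22 ± 0.09, adjusted p = 0.046, edgeR) and not from 1 h to 3 h. Its exons overlap those of EDC3 on the other strand. CLK1 in wt was at 118 and 136 CPM at 0 h, 123 and 143 CPM at 1 h, 129 and 121 CPM at 2 h, and 145 and 135 CPM at 3 h. CLK1 in SoF was at 132 and 142 CPM at 0 h, 146 and 149 CPM at 1 h, 117 and 137 CPM at 2 h, and 123 and 135 CPM at 3 h. CLK1 in Ctrl was at 111 and 162 CPM at 0 h, 128 and 129 CPM at 1 h, 112 and 133 CPM at 2 h, and 132 and 133 CPM at 3 h. In all 3 lines the 3 h libraries of CLK1 overlapped those at 0 h. Both 3 h libraries lay below both 1 h libraries in SoF and above them in Ctrl, and overlapped them in wt. The log2 fold change of CLK1 at 3 h was 0.00 ± 0.09 against 0 h (95% interval -0.18 to 0.19) and -0.03 ± 0.09 against 1 h.

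The hnRNPs of the A/B and D group bind RNA, and some of them promote exon skipping. Of the 7 in the group, 5 fell from 1 h to 3 h (HNRNPA2B1, HNRNPA3, HNRNPD, HNRNPDL and HNRNPA1), HNRNPAB rose and HNRNPA0 was not called. Once the GC trend was removed, HNRNPD (0.042), HNRNPDL (-0.13) and HNRNPA1 (-0.02) were no longer called. HNRNPA2B1 in wt was at 700 and 687 CPM at 0 h, 844 and 826 CPM at 1 h, 599 and 566 CPM at 2 h, and 629 and 565 CPM at 3 h. HNRNPA2B1 in SoF was at 718 and 878 CPM at 0 h, 964 and 936 CPM at 1 h, 580 and 643 CPM at 2 h, and 557 and 587 CPM at 3 h. HNRNPA2B1 in Ctrl was at 712 and 920 CPM at 0 h, 926 and 800 CPM at 1 h, 713 and 615 CPM at 2 h, and 673 and 628 CPM at 3 h. Both 3 h libraries of HNRNPA2B1 were below both 0 h and both 1 h libraries in each line. The log2 fold change was -0.54 ± 0.09 from 1 h to 3 h and -0.34 ± 0.09 at 3 h against 0 h (adjusted p = 2.34e-05 and 0.00308, edgeR). HNRNPA3, a close relative, fell in both comparisons, at -0.49 ± 0.08 and -0.31 ± 0.08 (adjusted p = 4.13e-05 and 0.00395, edgeR). HNRNPA1 in wt was at 830 and 736 CPM at 0 h, 875 and 737 CPM at 1 h, 733 and 747 CPM at 2 h, and 702 and 663 CPM at 3 h. HNRNPA1 in SoF was at 743 and 727 CPM at 0 h, 871 and 787 CPM at 1 h, 673 and 709 CPM at 2 h, and 632 and 688 CPM at 3 h. HNRNPA1 in Ctrl was at 767 and 778 CPM at 0 h, 806 and 858 CPM at 1 h, 781 and 736 CPM at 2 h, and 758 and 753 CPM at 3 h. HNRNPA1, the best known splicing repressor of the group, was lower at 3 h than at 1 h and at 0 h in every line, by little. Its log2 fold change was -0.24 ± 0.08 from 1 h to 3 h (adjusted p = 0.0126, edgeR) and -0.13 ± 0.08 at 3 h against 0 h (adjusted p = 0.184, edgeR). HNRNPAB in wt was at 227 and 162 CPM at 0 h, 151 and 178 CPM at 1 h, 269 and 263 CPM at 2 h, and 242 and 246 CPM at 3 h. HNRNPAB in SoF was at 193 and 134 CPM at 0 h, 134 and 135 CPM at 1 h, 231 and 219 CPM at 2 h, and 195 and 231 CPM at 3 h. HNRNPAB in Ctrl was at 197 and 150 CPM at 0 h, 179 and 150 CPM at 1 h, 236 and 269 CPM at 2 h, and 210 and 245 CPM at 3 h. HNRNPAB was above its 1 h level in all 2 h and 3 h libraries of each line, and at 0 h replicate 1 was the higher library in each line. Its log2 fold change was 0.57 ± 0.11 from 1 h to 3 h, and against 0 h 0.49 ± 0.11 at 2 h and 0.37 ± 0.11 at 3 h (adjusted p = 0.000135, 0.00136 and 0.00771, edgeR). PHYKPL lies over the same exons on the other strand, and only the table's title says that counting used strand.

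Of the 10 other hnRNPs, 5 fell from 1 h to 3 h (HNRNPH3, HNRNPR, HNRNPK, HNRNPH1 and HNRNPM), HNRNPF and HNRNPUL1 rose, and HNRNPC, HNRNPL and HNRNPU were not called. Without the GC trend HNRNPH1 (0.11), HNRNPR (0.0031), HNRNPK (-0.00025) and HNRNPUL1 (0.061) were no longer called. HNRNPH3 in wt was at 174 and 150 CPM at 0 h, 170 and 192 CPM at 1 h, 138 and 147 CPM at 2 h, and 148 and 140 CPM at 3 h. HNRNPH3 in SoF was at 168 and 207 CPM at 0 h, 218 and 218 CPM at 1 h, 149 and 167 CPM at 2 h, and 143 and 144 CPM at 3 h. HNRNPH3 in Ctrl was at 158 and 200 CPM at 0 h, 192 and 176 CPM at 1 h, 166 and 148 CPM at 2 h, and 151 and 148 CPM at 3 h. Thus HNRNPH3, a relative of the G-tract binding protein HNRNPH1, was at 170 to 218 CPM over the 6 libraries at 1 h and at 140 to 151 CPM over the 6 at 3 h, with no overlap. Its log2 fold change was -0.41 ± 0.08 (adjusted p = 0.000255, edgeR). HNRNPF, which binds the same G tracts, was at 255 to 340 CPM at 1 h and at 313 to 371 CPM at 3 h, so the groups overlapped. Its log2 fold change was 0.35 ± 0.08 (adjusted p = 0.00147, edgeR), and against 0 h it was 0.26 ± 0.08 at 2 h and 0.24 ± 0.08 at 3 h. PTBP1, the repressor that binds pyrimidine tracts, was at 206 to 275 CPM at 1 h and 210 to 322 CPM at 3 h, and PTBP2, its neuronal paralog, at 52.8 to 92.3 CPM and 47.8 to 66.5 CPM. Neither PTB protein was called (adjusted p = 0.212 and 0.076 from 1 h to 3 h, edgeR).

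RBM39, a splicing factor that works with U2AF, was the RBM protein that changed. RBM39 in wt was at 566 and 544 CPM at 0 h, 663 and 614 CPM at 1 h, 525 and 460 CPM at 2 h, and 477 and 460 CPM at 3 h. RBM39 in SoF was at 639 and 693 CPM at 0 h, 826 and 764 CPM at 1 h, 563 and 607 CPM at 2 h, and 456 and 475 CPM at 3 h. RBM39 in Ctrl was at 584 and 800 CPM at 0 h, 764 and 683 CPM at 1 h, 613 and 594 CPM at 2 h, and 529 and 511 CPM at 3 h. Both 3 h libraries were below all 0 h and 1 h libraries in each line. The log2 fold change was -0.56 ± 0.08 from 1 h to 3 h and -0.39 ± 0.08 at 3 h against 0 h (adjusted p = 9.5e-06 and 0.000716, edgeR). The cold-inducible proteins RBM3 and CIRBP and the tumour suppressor RBM5 were not called at any time in the mean of the lines. RBM3 was at 209 to 258 CPM in all 24 libraries, and its interval at 3 h against 0 h was -0.15 to 0.18 on the log2 scale.

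Against 0 h, 11 of the 42 genes were called at 2 h in the mean of the lines (26.2%, against 28.8% of all genes) and 19 at 3 h (45.2%, against 40.3% of all genes), both by edgeR. At 2 h 4 rose (CLK2, CLK4, HNRNPAB and HNRNPF; 16.2% of all genes rose) and 7 fell (TRA2B, SRPK2, SRSF3, HNRNPA2B1, HNRNPA3, SRSF4 and SRSF5; 12.6% of all genes fell). At 3 h 7 rose (20.9% of all genes rose) and 12 fell (19.3% of all genes fell). The 7 that rose also rose from 1 h to 3 h (CLK2, CLK4, HNRNPAB, HNRNPF, HNRNPUL1, SRPK1 and SRSF8), as 11 of the 12 that fell also fell, all but CLK3. These comparisons share the 3 h libraries. The counts turned on which 0 h libraries were used: with replicate 1 alone 2 genes were called at 2 h and 7 at 3 h (13.4% and 27.7% of all genes), and with replicate 2 alone 22 and 23 (40.1% and 45.2% of all genes). Leaving out 1 library gave 6 (without SoF 0 h replicate 2, Ctrl 0 h replicate 2 or SoF 2 h replicate 1), 7 (without wt 2 h replicate 2 or Ctrl 2 h replicate 2) and 18 (without Ctrl 0 h replicate 1) at 2 h. At 3 h CLK4, RBM39 and TRA2B were called under all 22 alternatives tried, with CLK4 between 0.44 and 0.76 on the log2 scale.

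GC content moved with these changes over all genes. Over 23580 genes with transcripts to measure, the log2 fold change from 1 h to 3 h correlated with GC content at Pearson r = 0.41, and over the 42 splicing regulators at r = 0.55. Against 0 h, r was -0.35 at 1 h and 0.28 at 3 h over all genes, and -0.69 and 0.37 over the 42. The genes of 1 library share its preparation, so this is a description. Genes under 40% GC took 15.5% to 20.3% of counts in the 1 h libraries and 13.1% to 15% in those at 3 h. At 0 h they took 14.3% and 18.8% in the 2 Ctrl libraries, 15.1% and 19.3% in SoF, and 12.6% and 15% in wt. The 20 splicing regulators that fell from 1 h to 3 h had a median GC content of 40.3% and the 7 that rose 48%, against 42.1% in the 15 not called.

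After the trend of all genes with GC content and gene span was taken out of the counts, an alternative chosen after the data had been seen, 22 of the 42 genes were called from 1 h to 3 h (46.9% of all genes), 11 up and 11 down, against 7 up and 20 down before. Of the 27, 15 remained. TRA2B kept -0.58 ± 0.08, RBM39 -0.38 ± 0.07 and HNRNPA2B1 -0.37 ± 0.07, and CLK4, whose GC content is 36.2%, went from 0.38 to 0.69 ± 0.07 (adjusted p = 2.53e-06, 0.000162, 0.000174 and 1.9e-07, edgeR). The 12 no longer called were SRSF3 (-0.18 ± 0.08), SRSF5, SRSF6, SRSF11, HNRNPA1 (-0.02 ± 0.07), HNRNPDL, HNRNPK, HNRNPUL1 and 4 that turned direction. These 4, HNRNPD, HNRNPH1, HNRNPR and SRPK2, fell before and turned to 0.042, 0.11, 0.0031 and 0.17. CLK1, HNRNPA0, SRSF1, SRSF2 and SRSF9 were called as rising and CIRBP and PTBP1 as falling, none of which was called before. At 3 h against 0 h the split went from 7 up and 12 down to 10 up and 9 down (40.4% of all genes), and at 2 h from 4 up and 7 down to 6 up and 3 down (27.7% of all genes). The adjustment also takes out any real change that follows GC content or span, and the part of either in the results was not tested further.

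**Figure D4:**
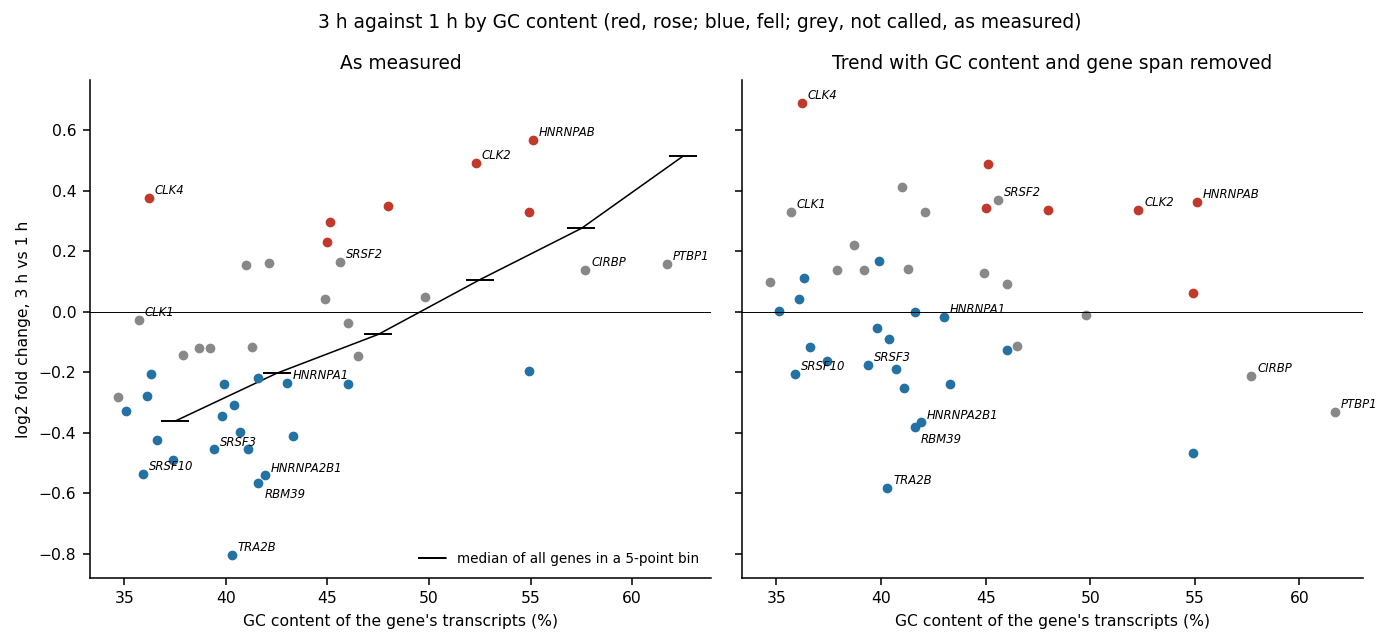
log2 fold change from 1 h to 3 h in the mean of the lines (y axis) against GC content of the gene's transcripts (x axis, %) for the 42 splicing regulators, before (left) and after (right) the trend over all genes was removed; colours are the calls of the left panel (red rose, blue fell, grey not called) and the line joins medians of all tested genes in bins of GC content (left panel). TRA2B stays lowest on both sides (-0.80 and -0.58). CLK4 is at 0.38 on the left, above the median of all genes under 40% GC (-0.36), and at 0.69 on the right.

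Within each line, with 2 libraries a time, fewer genes passed. At 1 h none of the 42 was called in wt (0.156% of all genes), SoF (0.165%) or Ctrl (0.0465%) by edgeR, with 3, 2 and 0 at an unadjusted p under 0.05 and 0 by DESeq2 in each. In wt CLK4 alone was called at 2 h (4.6% of all genes) and at 3 h (10.7%), at 0.68 ± 0.18 and 0.66 ± 0.18 on the log2 scale (adjusted p = 0.0361 and 0.0233, edgeR). In SoF none was called at 2 h (5.68% of all genes), with 6 at an unadjusted p under 0.05 and 1 by DESeq2. At 3 h in SoF 6 were called (19.3% of all genes): CLK4 rose by 0.65 ± 0.18, and TRA2A (-0.58 ± 0.16), TRA2B (-0.56 ± 0.18), RBM39 (-0.52 ± 0.14), HNRNPA2B1 (-0.48 ± 0.15) and SRSF4 (-0.48 ± 0.14) fell. In Ctrl SRPK2 fell by 0.47 on the log2 scale at 2 h (7.95% of all genes called; adjusted p = 0.0438, edgeR), and at 3 h CLK2 rose by 0.56 ± 0.16 and TRA2B fell by 0.63 on the log2 scale (14.2% of all genes; adjusted p = 0.0231 and 0.0202, edgeR).

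These counts rest on few libraries. In wt no gene was called at 2 h or 3 h once any 1 library of either group was left out. In SoF at 3 h the count was 11 without 0 h replicate 1, 1 without 0 h replicate 2, 1 without 3 h replicate 1 and 0 without 3 h replicate 2. In Ctrl it was 7 at 2 h and 10 at 3 h without 0 h replicate 1, 1 at 3 h without 0 h replicate 2, and 0 without a 3 h library, or at 2 h without 0 h replicate 2 or a 2 h library.

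A call in one line and not in another does not show that the lines differ, so the 3 h response was compared between lines as an interaction. None of the 42 genes was called between SoF and Ctrl (0.0127% of all genes), SoF and wt (0%) or Ctrl and wt (0%) by edgeR, none had an unadjusted p under 0.05, and DESeq2 called 0 in each. For TRA2B the difference in the log2 response was 0.07 between SoF and Ctrl (95% interval -0.45 to 0.59), -0.24 between SoF and wt (-0.77 to 0.28) and -0.31 between Ctrl and wt (-0.83 to 0.21). For CLK4 it was 0.21 (-0.33 to 0.75), -0.01 (-0.54 to 0.53) and -0.21 (-0.75 to 0.33). The furthest from 0 was PTBP2 between Ctrl and wt, at -0.59 (-1.25 to 0.07). The median interval over the 42 genes ran from -0.51 to 0.32 between SoF and Ctrl, a range that includes differences as large as many of the time effects.

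Levels over all times, 8 libraries a line, differed between lines for a few of the 42 genes. Between SoF and wt 1 was called by edgeR (8.02% of all genes): SRSF1, the prototype SR protein, which was at 401 to 489 CPM (median 447) in SoF and 341 to 431 CPM (median 370) in wt, overlapping, with a log2 difference of 0.26 ± 0.07 (adjusted p = 0.0173, edgeR). With the GC trend removed the difference of SRSF1 was 0.12 (adjusted p = 0.255, edgeR), and it was also not called without the filter on low counts. Between Ctrl and wt 4 were called (4.77% of all genes). HNRNPC, which binds uridine tracts, was at 271 to 336 CPM (median 309) in Ctrl and 238 to 284 CPM (median 251) in wt, with a difference of 0.25 ± 0.07 (adjusted p = 0.0244, edgeR), which was 0.21 and not called with the GC trend removed. CIRBP (0.38 ± 0.10) and SRSF6 (0.34 ± 0.09) were also higher in Ctrl, and RBM5 was lower (-0.24 ± 0.06), with adjusted p of 0.0298, 0.0281 and 0.0211 (edgeR).

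Between SoF and Ctrl 3 were called (3.61% of all genes). RBM5, which regulates splicing of apoptosis genes, was at 189 to 211 CPM (median 201) in SoF and 133 to 165 CPM (median 152) in Ctrl, with no overlap over 8 libraries each. Its log2 difference was 0.43 ± 0.06 (adjusted p = 5.09e-05, edgeR), and wt lay between, at 160 to 197 CPM (median 173). SRPK2, whose medians were 65.4 CPM in SoF (49.1 to 77.3) and 45 CPM in Ctrl (34.3 to 55.2), was 0.51 ± 0.11 higher on the log2 scale (adjusted p = 0.00773, edgeR), and the log2 difference of SRSF7 was -0.21 ± 0.06 (adjusted p = 0.045, edgeR). The call of SRSF7 was lost under 13 of 24 alternatives. RBM5 and SRPK2 were called under all 24 alternatives tried. Exons of RBM5 overlap RBM6 on the same strand. NR3C1 RNA also differed between the lines, as given above, and its part in these differences was not tested. The fit that ignores time counts the time effect as spread, and with time as an added term 16 (SoF and wt), 7 (Ctrl and wt) and 4 (SoF and Ctrl) of the 42 genes were called, against 28.3%, 18% and 12.7% of all genes. Between SoF and wt the count was 6 without wt 1 h replicate 2, 4 without either SoF 3 h library and 2 without SoF 2 h replicate 1. Between Ctrl and wt it was 2 without wt 3 h replicate 1, Ctrl 0 h replicate 2, Ctrl 1 h replicate 1 or Ctrl 2 h replicate 1.

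**Figure D5:**
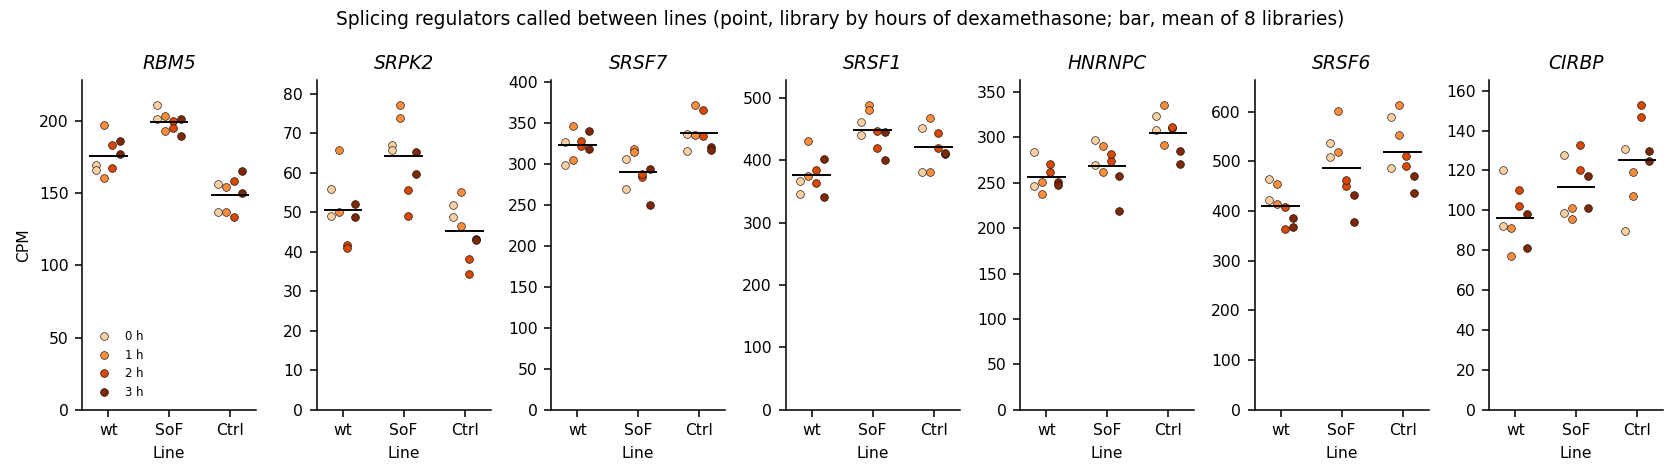
Labelled RNA (CPM, y axis from 0) of the 7 splicing regulators called between lines, in the wt, SoF and Ctrl lines (x axis); points are the 8 libraries of a line, coloured by hours of dexamethasone, and bars their mean. For RBM5 the SoF libraries (189 to 211 CPM) and Ctrl libraries (133 to 165 CPM) do not overlap, and the wt libraries (160 to 197 CPM) lie between and overlap both.

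Of the 20 splicing regulators that fell from 1 h to 3 h, 19 had at least 1 transcript annotated as a target of nonsense-mediated decay in GENCODE release 44, as had 13 of the 15 not called and 4 of the 7 that rose. RBM39 had 16 such transcripts and HNRNPA2B1 35. Transcript numbers follow how well a gene has been annotated. The share over all tested genes was not counted, so these counts are not read as a trait of the genes that fell.

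Other genes of the splicing machinery were followed from lists. Of 39 core spliceosome genes, 16 rose and 7 fell from 1 h to 3 h (median log2 fold change 0.13), where 25% of all genes rose and 25.6% fell. DDX23, a helicase of the U5 particle, rose by 0.51 on the log2 scale, and U2AF1 and SF3B1, which recognise the 3′ splice site, fell by 0.50 and 0.42. Of 43 tested among 44 other splicing regulators, 8 rose and 13 fell (median -0.09), with MBNL2 (-1.01) and ELAVL1 (0.50) among them. Of 14 genes of nonsense-mediated decay, 7 rose and 1 fell from 1 h to 3 h (median 0.11), SMG5 by 0.62 and UPF3B by -0.54. At 3 h against 0 h the picture was different: 3 core spliceosome genes rose and 5 fell (median 0.04). Of the other regulators 3 rose and 9 fell (median -0.06), and of the decay genes 2 rose and 1 fell (median 0.09). Over all genes 20.9% rose and 19.3% fell. The GC trend was not taken out of the values of these lists. Beside them, all 12 immediate early genes fell at 3 h against 0 h (median -2.16), 10 of 12 heat shock genes rose and 1 fell (median 0.37), and of 6 genes for the receptor and its targets 4 rose and 2 fell, where 20.9% of all genes rose and 19.3% fell. The part of these programmes in the changes of the splicing regulators was not tested.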

How the data were processed

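The authors labelled RNA with 4sU, prepared libraries with a kit that depletes ribosomal RNA and adds unique molecular identifiers, and deposited 1 table of read counts per gene over exons, not normalised. Per the labels and the study's methods, reads were trimmed with Trim Galore 0.6.6, aligned to hg38 with STAR 2.7.3a, deduplicated with UMI-tools 1.1.2 and counted with featureCounts on GENCODE release 39. The title of the table calls the counts stranded, and the setting is not given in the sources used here.

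Symbols and positions came from GENCODE release 44 (99.8% of 61533 genes matched) and promoters from RefSeq. Genes were filtered (edgeR filterByExpr, minimum count 10 and minimum total 15), scaled by TMM and tested with edgeR 4.0.16 (quasi-likelihood, R 4.3.3), with p-values adjusted by Benjamini-Hochberg over all genes tested and called under 0.05. The time contrasts came from 1 fit over the 12 groups (biological coefficient of variation 14.2%), and the comparisons of lines from a fit over the 3 lines (24%, 21122 genes). The mean of the lines is the average of their 3 contrasts. All comparisons with 0 h share its libraries. SE was taken as |log2 fold change| over the root of the F statistic. The study used DESeq2 within each line, which was an alternative here (1.42.0). The code was tested on simulated data.

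The members and lists were chosen with earlier results of these data known. Values per library, or their ranges, were given for SRSF3, CLK1 and HNRNPA1, for the gene of smallest p at 3 h and of highest level in each role, and for up to 2 genes in each comparison of lines. CLK2, HNRNPAB, the remaining genes given by value and the examples from other lists (core spliceosome, other splicing regulators, nonsense-mediated decay, immediate early, heat shock, receptor and targets) were chosen after their values were seen. Alternatives were other scalings, no filter, a replicate block, 1 set of 0 h libraries, other fits of the same groups and each library left out.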

Additional observations from a re-analysis of the deposited data

How the results depend on the processing

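Of 1546 alternative values of called splicing regulators, 1264 kept direction and call, 278 kept direction and lost the call, and 4 turned. Called from 1 h to 3 h under all 20 alternatives were 13 of the 27 (CLK2, CLK4, HNRNPA2B1, HNRNPA3, HNRNPAB, HNRNPF, HNRNPH3, RBM39, SRSF10, SRSF4, SRSF8, TRA2A and TRA2B). The 4 that turned did so from 1 h to 3 h with the trend in GC content and gene span removed, an alternative chosen after seeing the data: HNRNPD to 0.042, HNRNPH1 to 0.11, HNRNPR to 0.0031 and SRPK2 to 0.17 on the log2 scale. With this trend removed the counts of called genes were 3 in wt at 3 h, 1 and 11 in SoF at 2 h and 3 h, and 5 between the SoF and wt lines. The cause was not tested.

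With the 0 h libraries of replicate 1 only, the counts at 1 h, 2 h and 3 h were 14, 2 and 7 in the mean of the lines and 1, 1 and 1 in SoF. They were 0 at 2 h in wt, and 0 at 2 h and 1 at 3 h in Ctrl. With those of replicate 2 only, they were 22 at 2 h in the mean, and at 2 h and 3 h 2 and 2 in wt, 4 and 13 in SoF and 12 and 14 in Ctrl. Each such 0 h group holds 1 library, assumed to vary like the others. Scaling by library totals gave 0 in wt at 2 h and 6 between SoF and wt. DESeq2 gave 2 in wt at 3 h, 1 and 10 in SoF at 2 h and 3 h, 4 in Ctrl at 2 h, and 6 between SoF and wt. Without the low-count filter the counts were 1 in SoF and 2 in Ctrl at 2 h, and 0 for both SoF and Ctrl against wt. The libraries of the line alone gave 0 in Ctrl at 2 h. An additive time term gave 16 (SoF and wt) and 7 (Ctrl and wt), and the mean of the 4 times in the fit over the 12 groups gave 9 (SoF and wt).

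Leaving out 1 library gave 0 to 2 genes at 1 h, 6 to 18 at 2 h, 13 to 21 at 3 h and 20 to 25 from 1 h to 3 h in the mean of the lines. In wt it gave 0 to 0 at each time, in SoF 0 to 0, 0 to 2 and 0 to 11, and in Ctrl 0 to 0, 0 to 7 and 0 to 10. Interactions stayed at 0 to 0, and the lines gave 1 to 6 (SoF and wt), 2 to 4 (Ctrl and wt) and 2 to 3 (SoF and Ctrl).

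Replicate numbers did not pair the samples throughout, but were shared at 0 h: of 66 pairs of groups, 21 had deviations that correlated over 0.1 (range -0.22 to 0.57), with 0.39 to 0.57 between the 0 h groups, and 9 of the 18 pairs within a line. With the replicate block, also within each line, the counts were 2 in wt at 3 h, 1 in SoF at 2 h and 2 in Ctrl at 2 h. In the mean of the lines the block gave 0, 12 and 19 genes at 1 h, 2 h and 3 h and 28 from 1 h to 3 h.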
